A study of Mus musculus with 2 samples.

Results

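The genes described here are the small heat shock proteins of muscle (Hspb1, Hspb2, Hspb3, Hspb6, Hspb7, Hspb8 and Cryab), their cochaperone gene Bag3 and the desmin gene Des. They were chosen by name, through a match of Ensembl gene identifiers to mouse symbols, and all 9 were found among the 17646 genes listed in the tables. The data are RNA sequencing of hearts from BALB/c mouse embryos of day 13.5, 1 library from wild-type (WT) hearts and 1 from hearts of the genotype SRSF10-/-, called the knockout here. The protein made from Srsf10 regulates pre-mRNA splicing, and the libraries allow the levels of heart transcripts to be set side by side with and without it. How the knockout allele was made, and how many embryos were behind each library, were not given in the sources used here. With 1 library per group no difference could be tested for significance. All intervals are 95% intervals of read counting, and "higher" or "lower" describes this pair of libraries alone.

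Small heat shock proteins share an alpha-crystallin domain and form oligomers that hold unfolding proteins in a soluble state without using ATP. In striated muscle several of them sit at the Z-disc and along desmin filaments, the intermediate filaments that tie neighbouring myofibrils to each other and to the cell membrane. Hspb8 works with Bag3 and the chaperone Hspa8 to hand damaged proteins such as filamin C to autophagy. Mutations in CRYAB, DES and BAG3 are known causes of human myofibrillar myopathy or cardiomyopathy.

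Many heat shock genes carry heat shock elements, inverted repeats of the letters GAA to which heat shock factors bind. RefSeq promoter windows (build GRCm38.p6, 250 bases before to 50 after a start) were matched for 7 of the 9 members in 8 windows. Hspb2 and Cryab were not matched. The inverted repeat GAANNTTC, searched on both strands (it reads the same on each), was found in the windows of 5 members, namely Hspb1, Hspb3, Hspb6, Hspb8 and Bag3. It was thus in 5 of 8 member windows and in 7.86% of all 32851 RefSeq windows. Hspb6 has 2 windows, and the upstream one (chr7:30552290-30552539 before its start) held none of the motifs searched. The opposite arrangement TTCNNGAA was found in no member's window (8.52% of all windows), nor was the CArG box bound by serum response factor (1.63% of all). The TATA element TATAAA was found for Hspb3 and Hspb6 (13.6% of all), and a MEF2 site for Hspb3 (3.19% of all), where it overlaps the TATA element. A match describes letters only and is not a measured binding site. The 30-base stretches around each GAANNTTC match are printed because 4 of the 5 members held the same 8 letters, GAAGTTTC. This form was picked out after the matches were seen, and its share over all windows was not counted. Capitals mark the match, and each position is counted from the RefSeq start.
Hspb1 at -117 (chr5:135887791-135887820, plus strand): cttcaacaagaGAAGTTTCcagatgggggc
Hspb1 at -97 (chr5:135887811-135887840, plus strand): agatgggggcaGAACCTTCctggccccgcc
Hspb6 at -120 (chr7:30553170-30553199, plus strand): aagtaattattGAAGTTTCtaaataaggaa
Hspb8 at 3 (chr5:116422844-116422873, minus strand): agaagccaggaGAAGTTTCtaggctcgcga
Bag3 at 43 (chr7:128523603-128523632, plus strand): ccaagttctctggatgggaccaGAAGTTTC
Hspb3 at -224 (chr13:113663882-113663911, minus strand): ctccccgaatgGAATTTTCaggcagaggga

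The 250 bases before the start are shown for Hspb1 and for the downstream RefSeq start of Hspb6, because these 2 members had the largest differences between the libraries. Capitals mark GAANNTTC and TATAAA.
Hspb1 (chr5:135887669-135887918, plus strand): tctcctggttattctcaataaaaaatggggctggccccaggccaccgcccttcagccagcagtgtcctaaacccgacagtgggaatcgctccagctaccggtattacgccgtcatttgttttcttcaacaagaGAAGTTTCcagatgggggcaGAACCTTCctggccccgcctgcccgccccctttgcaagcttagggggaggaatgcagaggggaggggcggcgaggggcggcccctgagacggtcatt
Hspb6 (chr7:30553051-30553300, plus strand): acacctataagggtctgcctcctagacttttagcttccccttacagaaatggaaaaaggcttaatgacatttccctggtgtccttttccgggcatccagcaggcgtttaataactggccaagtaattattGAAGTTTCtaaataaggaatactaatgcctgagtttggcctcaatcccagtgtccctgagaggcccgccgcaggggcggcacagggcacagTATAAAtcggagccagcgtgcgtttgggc

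Uniquely mapped reads counted in the listed genes numbered 39.6 M for the wild type and 38.9 M for the knockout. These sums equal the library totals used here, and 11.0% and 12.1% of them lay in mitochondrial genes. Srsf10 had 5245 reads in the wild-type heart against 212 in the knockout, 4.12% of the wild-type level per library read (3.57 to 4.72). Of 12 cardiomyocyte markers none was at 0, and their summed level was 15363 RPKM in the wild-type heart against 14075 in the knockout, so the labelled tissue was seen in both libraries. RPKM is reads per kilobase of listed gene length per 1 M library reads, so it allows levels of different genes to be compared. Reads of 4 Y-linked genes numbered 2943 in the wild-type heart against 7 in the knockout, so the sex of the tissue and the genotype cannot be told apart. In bulk tissue, fewer cells of a type and less RNA per cell cannot be told apart either.

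All 9 members had a lower level in the knockout heart. Hspb1 and Hspb6 were lower by more than 1.5-fold, Hspb7 and Bag3 by about the same smaller ratio as each other, and Hspb3 hardly differed. The log2 ratio of RPKM + 1, knockout over wild type, was below 0 for 9 of 9 members and for 51.8% of the 12329 genes measured, meaning those that reached an RPKM of 1 in either library. Its median was -0.19 over the members (range -0.65 to -0.05) and -0.01 over all measured genes (quartiles -0.14 and 0.13). Among the 3478 genes that reached an RPKM of 20 in either library, 61.0% were below 0, with a median of -0.05. On this scale, at least 1.5-fold lower were 2 of 9 members and 1.44% of all measured genes. At least 1.5-fold higher were 0 of 9 members and 1.52% of all. The counting interval of the read ratio lay wholly below 1 for 8 of 9 members, and for 31.6% of all measured genes. Such an interval narrows with read depth, so these 2 shares are not of like depth. At least 1000 reads in both libraries were found for 8 of 9 members and for 6855 genes in all. GC content moved with the ratio across genes: the bin of highest GC content (median 60.9%) had a median log2 ratio of -0.13 and that of lowest (38.3%) one of 0.06. The members' transcripts had 51.5 to 61.7% GC, against a median of 49.8% for all measured genes. After the log2 ratios were centred on genes of like GC content, an alternative chosen after seeing the data, all 9 members were still below 0 but 0 of 9 were at least 1.5-fold lower. A pseudocount of 5, a total without mitochondrial genes, scaling to cardiomyocyte markers and centring by listed length each left 1 of 9, Hspb1. Over all measured genes, 177 were at least 1.5-fold lower as computed. In these alternatives, in the order named, the number was 54, 183, 151 and 158. Centring by GC content gave 141.

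**Figure D1:**
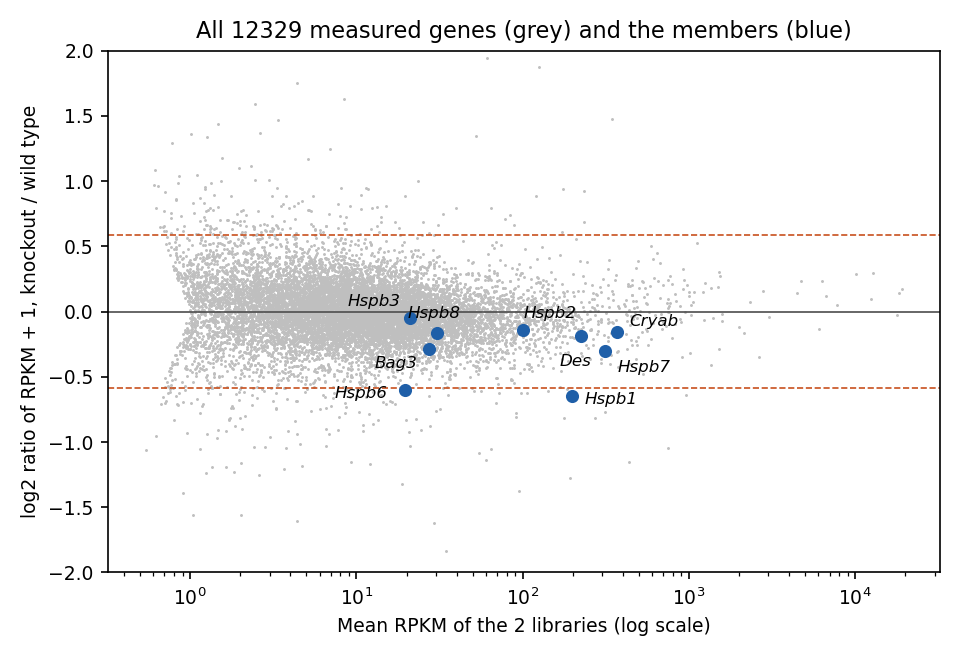
The log2 ratio of RPKM + 1, knockout over wild type, is plotted against the mean RPKM of the 2 libraries (log scale) for the 12329 measured genes (grey points) and the 9 members (blue points). Dashed lines mark 1.5-fold, and 10 genes lie beyond the vertical axis limit of 2. All 9 members lie below 0, and Hspb1 and Hspb6 lie below the lower dashed line.

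Cryab, the alphaB-crystallin that binds desmin and titin, was the most abundant member in both libraries. It had 18193 reads, or 388 RPKM, in the wild-type heart against 15991 (347 RPKM) in the knockout, 1.12-fold lower (1.09 to 1.14). Hspb7, the cardiovascular heat shock protein that binds filamin C, was second with 37598 reads (343 RPKM) and 29932 (278 RPKM). The knockout held 81.1% (79.9 to 82.3) of the wild-type level. Both lay among the most abundant genes of the heart, in the top 0.806% (Cryab) and 0.889% (Hspb7) of listed genes in the wild type. Hspb7 lies on chromosome 4, as Srsf10 does, 5.55 Mb from it in GRCm38. The 60 measured genes between them had a median log2 ratio of -0.06, with 2 at least 1.5-fold lower and 1 at least 1.5-fold higher.

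Hspb1, the broadly expressed family member known as Hsp25 in mouse and Hsp27 in human, had the largest difference. It had 8857 reads, or 240 RPKM, in the wild-type heart against 5541 (153 RPKM) in the knockout, 1.57-fold lower (1.52 to 1.62). The log2 ratio of -0.65 was matched or passed in this direction by 1.01% of measured genes. Its level is less certain than those of the others because 58.4% of the 31-base words of its longest transcript also occur in Gm9817 or Hsp25-ps1, 2 overlapping genes with a copy of its sequence on chromosome 13. Gm9817 itself had 39 reads in the wild-type heart against 7 in the knockout, and adding these to Hspb1 gave 1.57-fold lower (1.52 to 1.63). These reads are too few to move the ratio. Reads that match both genes are not uniquely mapped, so the sum cannot show their part. Reads covered 99.89% of the listed length of Hspb1 in each library.

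Hspb6, the small heat shock protein known as Hsp20 and a target of protein kinase A, differed by almost the same ratio at a much lower level. It had 1862 reads, or 23.7 RPKM, in the wild-type heart against 1182 (15.4 RPKM) in the knockout, 1.55-fold lower (1.44 to 1.66). Its interval included 1.5-fold, and that of Hspb1 did not. The listed length of Hspb6, 1980 bases, is that of the transcript Hspb6-203, which is annotated in GENCODE M21 as a processed transcript without a coding sequence. The longest coding transcript there has 1363 bases. How the reads divide among these forms is not in the tables, so the RPKM of Hspb6 is tied to the listed length. Proser3, whose gene overlaps the upstream start of Hspb6, had 966 and 872 reads and was 1.09-fold lower (0.991 to 1.19). Lin37, which overlaps its far end by a few bases, had 494 and 587 reads and was 1.21-fold higher (1.07 to 1.37). Gm38670 also overlaps Hspb6 in GENCODE M21. Of the sequence words of Hspb6, counted as for Hspb1, 7.13% also occur in Gm38670 or Proser3, which lowers the certainty of its level. The use of strand in counting was not given in the sources used here, so reads of overlapping genes cannot be told apart.

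Hspb2, which binds the myotonic dystrophy kinase, had 3530 reads, or 106 RPKM, in the wild-type heart against 3131 (95.9 RPKM) in the knockout, 1.11-fold lower (1.05 to 1.16). Its ratio and that of Cryab had overlapping intervals, and Cryab stood at 3.65 times the level of Hspb2 in the wild-type heart against 3.62 times in the knockout. Both genes lie on chromosome 9 in opposite orientation and overlap by 1030 bases in GENCODE M21, so their values are not independent. Of the sequence words of Hspb2, counted as for Hspb1, 29.9% also occur in Cryab, and of those of Cryab 20.4% occur in Hspb2. Hspb3, the partner with which Hspb2 forms a complex in muscle, had the lowest level in the wild type, with 659 reads (21.3 RPKM) there and 624 (20.5 RPKM) in the knockout. Its ratio was 1.04-fold lower with an interval from 0.928 to 1.16, so a difference in Hspb3 was not detectable at this depth.

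**Figure D2:**
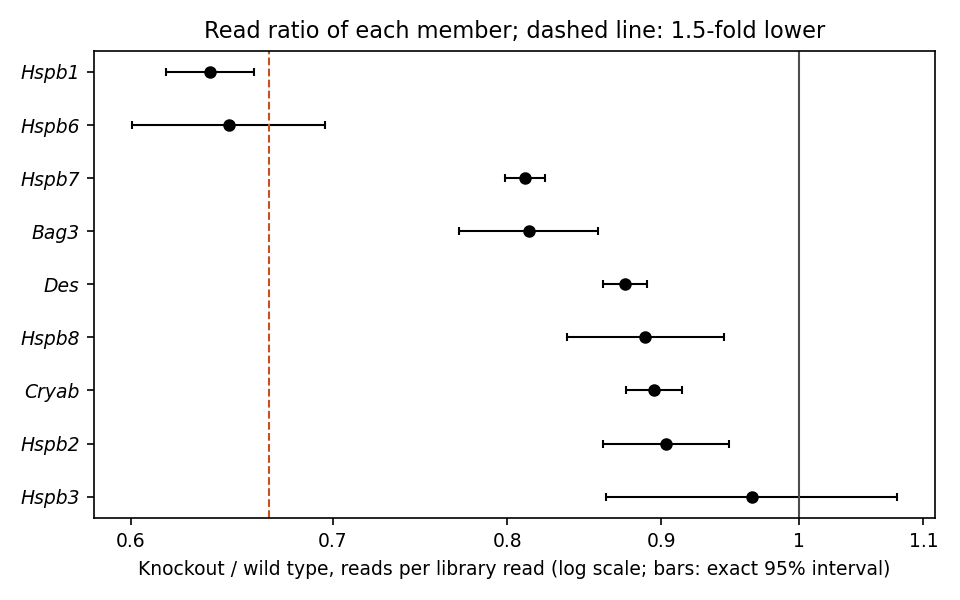
The knockout to wild-type ratio of reads per library read is shown for each member on a log scale, with its exact 95% interval of counting as a bar. The dashed line marks a level 1.5-fold lower. Hspb1 and Hspb6 lie apart from the other members, and the interval of Hspb3 alone includes 1.

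Hspb8 and Bag3 act as a pair in the selective autophagy of damaged muscle proteins. Hspb8 had 2323 reads, or 32.3 RPKM, in the wild-type heart against 2028 (28.7 RPKM) in the knockout, 1.12-fold lower (1.06 to 1.19). Bag3 had 3079 reads (28.9 to 31.1 RPKM) and 2458 (23.4 to 25.4 RPKM), 1.23-fold lower (1.17 to 1.30). The level of Hspb8 relative to Bag3 was thus 1.08 in the wild-type heart against 1.18 in the knockout. The Bag3 gene overlaps 2610306O10Rik in GENCODE M21. Des, whose protein is the main intermediate filament of muscle, had 28561 reads (238 RPKM) and 24549 (208 RPKM), 1.14-fold lower (1.12 to 1.16). The antisense gene Gm15179 overlaps Des, and 6.60% of the 31-base words of Des are shared with it or with Prph, another intermediate filament gene.

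The order of the members by RPKM was nearly the same in both hearts. In the wild type it ran Cryab, Hspb7, Hspb1, Des, Hspb2, Hspb8, Bag3, Hspb6 and Hspb3. The counting intervals overlapped for the neighbours Hspb1 and Des, Hspb8 and Bag3, and Hspb6 and Hspb3. In the knockout Hspb1 stood below Des (0.735 times its level, against 1.01 times in the wild type), and Hspb6 stood below Hspb3. No neighbours in that order had overlapping intervals in the knockout. The 7 small heat shock proteins summed to 1154 RPKM in the wild-type heart against 939 in the knockout, and Cryab, Hspb7 and Hspb1 made up 84.1% and 82.9% of that sum. Within it the share of Hspb1 was 20.8% in the wild-type heart against 16.3% in the knockout, while that of Cryab was 33.6% and 37.0%. The Cryab level was 1.61 times that of Hspb1 in the wild-type heart against 2.26 times in the knockout.

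**Figure D3:**
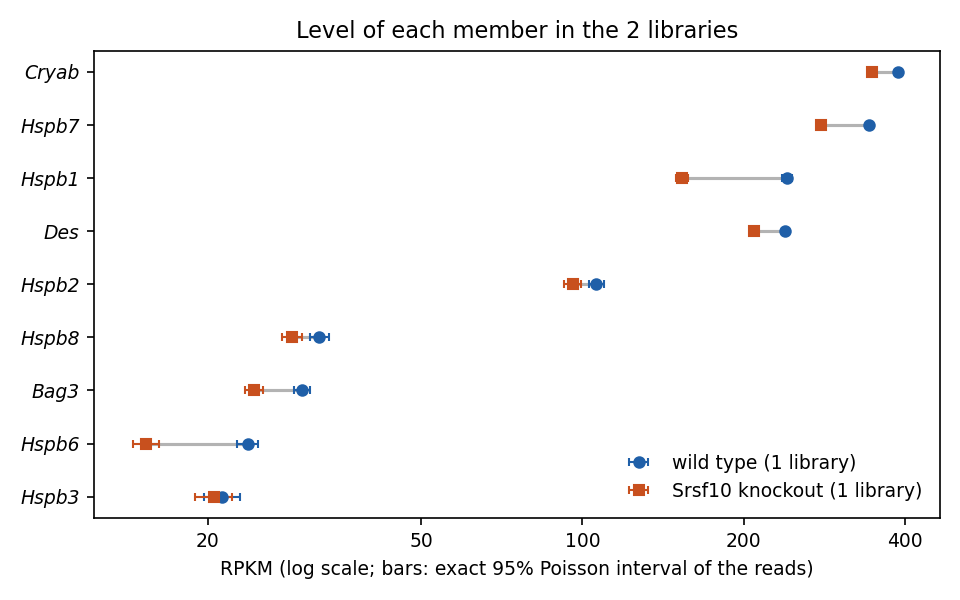
The RPKM of each member is plotted on a log scale for the wild-type library (circles) and the knockout library (squares), with exact 95% Poisson intervals of the reads as bars. Every square lies to the left of its circle, and the widest gaps are those of Hspb1 and Hspb6.

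The tables also hold a coverage percent per gene, and here Hspb7 and Hspb6 had higher values in the knockout although they had fewer reads there. The column was read as the percent of the listed length covered by reads, from its header and its values. In genes of up to 1000 listed bases, all 1315 wild-type and 1351 knockout values gave a whole number of bases within 0.0051 points, against 7.17% for numbers unrelated to length. A single knockout value, of a gene that is no member, lay slightly above 100%, which a percent covered cannot do. Reads covered 75.12% of the 2769 bases of Hspb7 in the wild type (2080 bases) and 91.37% in the knockout (2530 bases). They covered 87.63% of Hspb6 in the wild-type heart against 95.81% in the knockout, or 1735 and 1897 of 1980 bases. Lin37, the neighbour that overlaps the far end of Hspb6, was covered to 75.91% and 83.46%, with fewer than 1000 reads in each library. Des went the other way, from 95.84% to 91.41%. The other 6 members differed by less than 1 point. Among the 6855 genes with at least 1000 reads in both libraries, the difference, knockout minus wild type, had a median of -0.03 points and quartiles of -0.82 and 0.62. A gain of at least 5 points in the knockout was seen for 2 of the 8 members with that depth and for 4.23% of those genes. A loss of at least 5 points was seen for 0 of 8 members and 4.64% of those genes. A gain as large as that of Hspb7, 16.25 points, was seen in 33 of the 6855 genes (0.481%), and one as large as that of Hspb6, 8.18 points, in 2.17%. Of the 31-base words of Hspb7, 2.48% also occur in other genes, and of those of Hspb6 7.13% do. Which bases were covered is not in the tables, so no exon can be named. The single GENCODE M21 transcript of Hspb7 has the listed length, whereas Hspb6 has 4 transcripts there.

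**Figure D4:**
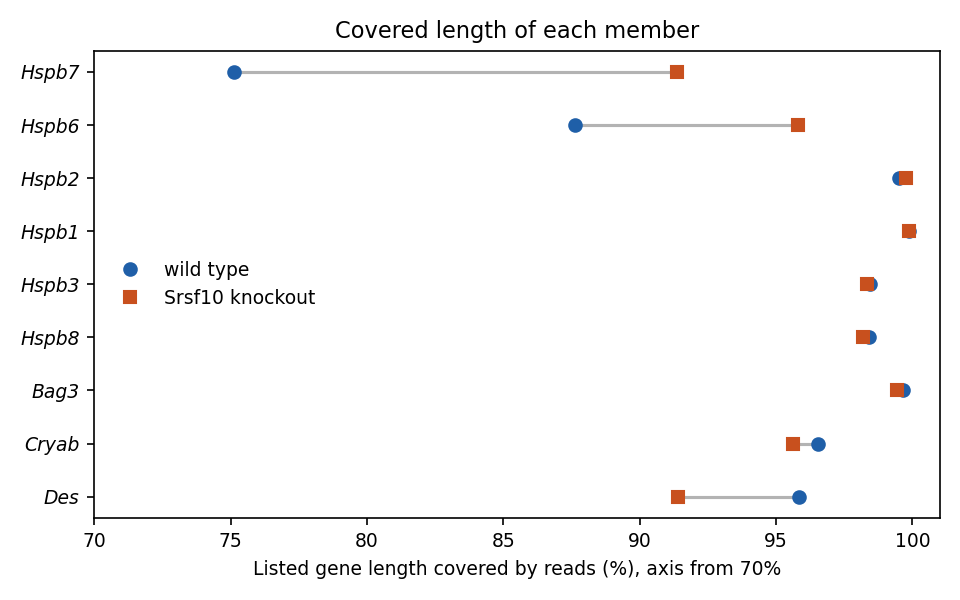
The percent of the listed gene length covered by reads is shown for the wild-type library (circles) and the knockout library (squares), on an axis that starts at 70%. Hspb7 and Hspb6 had more of their length covered in the knockout and Des less, while the other members lay within 1 point.

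Genes that work with the members were examined in lists that were chosen with earlier results of these data known. No gene with an RPKM of at least 1 in these 6 lists differed by 1.5-fold. Of all measured genes 1.44% were at least 1.5-fold lower and 1.52% higher, so 0 in lists this short is near that share. In the list of other small heat shock proteins, Hspb11, a ciliary transport protein named for its resemblance to the family, was the single gene measured. It had 712 reads, or 11.97 RPKM, in the wild-type heart against 860 (14.7 RPKM) in the knockout, 1.23-fold higher (1.11 to 1.36). The lens crystallin Cryaa and Odf1 were not listed and were taken as 0 reads. Among 19 BAG family and Bag3-dependent autophagy genes, 11 were below 0 and 8 above, with a median of -0.10. Hspa8, the constitutive Hsp70 that Bag3 binds, was the most abundant of them and went from 863 to 974 RPKM, 1.13-fold higher (1.12 to 1.14). Flnc, the filamin C cleared by that route, differed most there, with 82.6 RPKM in the wild-type heart against 66.9 in the knockout, 1.23-fold lower (1.21 to 1.26).

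Of 19 measured heat shock factors and heat-inducible chaperones, 13 were below 0 and the median was -0.05. Hsp90ab1, the constitutive Hsp90, had 1007 RPKM in the wild-type heart against 1042 in the knockout, and Hspa2, an Hsp70 best known from the testis, was 1.31-fold higher (1.18 to 1.44). Intermediate filament and desmin linker genes had 9 of 19 below 0 and a median of 0.05, which turned to -0.00 among the 15 genes with an RPKM of at least 5. Vimentin (Vim), the mesenchymal intermediate filament, had 749.7 and 748.6 RPKM, whereas the keratin Krt8 was 1.44-fold higher (1.27 to 1.63). Z-disc and actin genes were below 0 in 12 of 16 measured, with a median of -0.19. Cardiac actin (Actc1) stood at 91.3% of its wild-type level (90.9 to 91.8), and Fhl1, a LIM protein that binds titin, was 1.36-fold lower (1.31 to 1.41). Muscle transcription factors were below 0 in 9 of 10, with a median of -0.13. The homeobox factor Nkx2-5 stood at 90.5% of its wild-type level (87.4 to 93.7), and the serum response factor Srf was 1.24-fold lower (1.20 to 1.29).

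**Figure D5:**
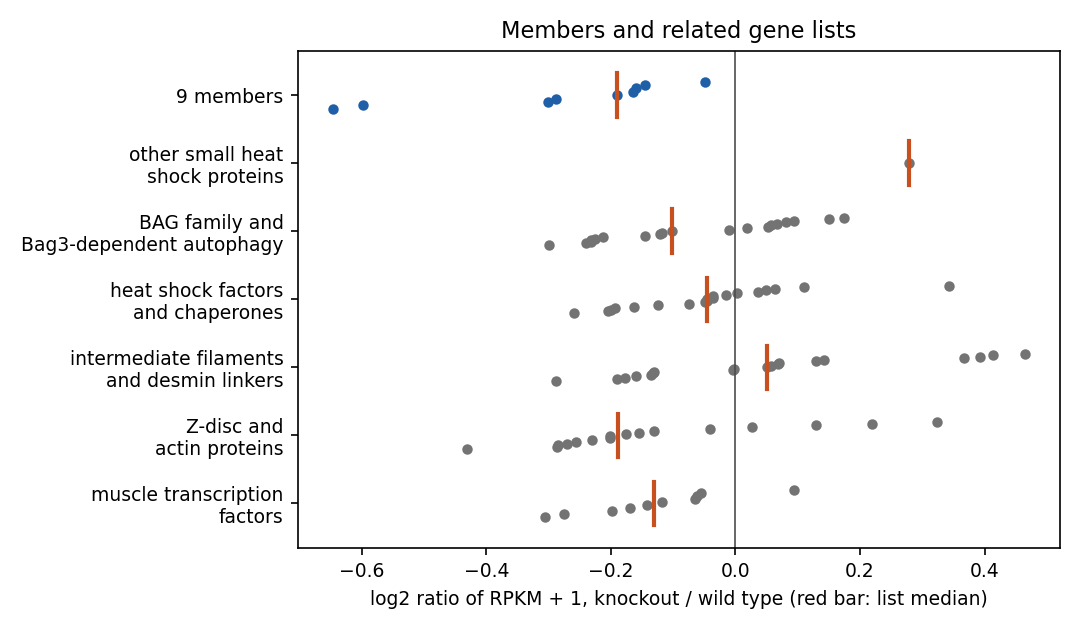
Each point is the log2 ratio of RPKM + 1, knockout over wild type, of 1 measured gene, for the 9 members (blue) and 6 related lists (grey), and red bars mark the medians. The members lie wholly below 0, the Z-disc and actin list has a like median of -0.19, and the intermediate filament list is centred near 0.

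Markers of other cell types differed between the same libraries. Fibroblast and cushion mesenchyme markers were below 0 in 8 of 8, with a summed level of 891 RPKM in the wild-type heart against 637 in the knockout. The list was uneven, with 3 of 8 at least 1.5-fold lower (1.44% of all measured genes). These were Col1a1, Col1a2 and Dcn, at 66.2%, 65.4% and 64.5% of their wild-type levels. Col3a1, at 66.6%, fell just short of the rule on the log2 scale. Pdgfra stood at 94.9% (91.3 to 98.7) and Tcf21 at 99.2% (92.7 to 106). Smooth muscle markers summed to 2365 and 2822 RPKM, with 6 of 8 above 0. Of the 11 skeletal muscle markers listed, 7 were above 0 and 4 below, and their sum was 143 RPKM in the wild-type heart against 195 in the knockout. Tnni2, a fast skeletal troponin named after its values were seen, accounted for the higher sum (24.4 and 96.8 RPKM), and without it the other 10 summed to 119 and 98.0 RPKM. Ckm, the muscle creatine kinase and the most abundant of them, had 102 and 75.1 RPKM and made up most of the 119 and 98.0 RPKM. The low-level Myh3, Myod1 and Myog were also below 0, at 87 and 8, 18 and 2, and 41 and 18 reads. Above 0 beside Tnni2 were Tnnt3 (3.53 and 7.36 RPKM), Mylpf (6.72 and 8.93), Myh8 (0.907 and 1.33), Actn3, Mybpc1 and Cacna1s. Macrophage markers were above 0 in 5 of 5 measured (35.8 and 51.7 RPKM), and endothelial markers in 4 of 7 (302 and 294 RPKM). Hepatocyte markers summed to 5.82 and 3.27 RPKM, with 1 of 3 measured above 0, and Fgb was not listed. Alb (88 reads in the wild type) and Serpina1a (2 reads) were at 0 in the knockout. Afp had 145 and 4 reads and Apoa1 19 and 2. The others went the other way, with Apob at 74 and 199 reads, Ttr at 22 and 34, and Apoa2 at 39 and 42. Lens markers were near 0, at 3.09 and 3.76 RPKM in sum, with Cryaa, Cryga and Crygs not listed and Cryba2 at 0 in the wild type. Cardiomyocyte markers were below 0 in 9 of 12, with a median of -0.06, and 0 of 12 differed by 1.5-fold. Markers at least 1.5-fold higher were 1 of 8 for smooth muscle, 2 of 7 measured for skeletal muscle and 2 of 5 for macrophages. For lens it was 1 of 2 measured, and for all measured genes 1.52%. At least 1.5-fold lower were 1 of 7 endothelial and 2 of 3 measured hepatocyte markers (1.44% of all measured genes). The part of these markers in the members' differences was not tested.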

How the data were processed

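The authors deposited 1 table per library with whole-number counts of uniquely mapped reads per Ensembl gene, the listed gene length, the percent of it covered, and RPKM scaled to that length and to the library total, per the file headers. The submitters' processing notes name Bowtie 0.12.2 and mm9. Annotation release, strand use and read filters were not given in the sources used here. Genes absent from 1 table were given 0 reads there. Since uniquely mapped reads are counted, sequence shared with another gene lowers certainty.

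Symbols were matched through Ensembl identifiers for 17196 of the 17646 listed genes. Log2 ratios of RPKM + 1 were computed where either library reached an RPKM of 1, and the pseudocount of 1 shrinks the ratios of weakly expressed genes. Fold values are ratios of reads per library read with exact conditional binomial (Clopper-Pearson) intervals, and intervals of levels are exact Poisson intervals. Both cover counting error only, as reads carry no molecular identifiers and can be copies of 1 molecule. Interval code was tested on simulated data. No model across genes was run, since there are no replicates. Scale factors came from edgeR 4.0.16 (TMM, upper quartile) and DESeq2 1.42.0 (median of ratios), and other steps used Python 3.11.15 and scipy 1.17.1.

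The listed length equals the longest GENCODE M21 transcript for 6 of 9 members. Shared 31-base words, GC content and overlaps came from that annotation (GRCm38) and promoters from RefSeq (GRCm38.p6), not from the mm9 build of the tables. The members and lists were chosen with earlier results of these data known. Genes named beside the members are, for each related list, its most abundant gene and its largest absolute log2 ratio at an RPKM of at least 5, genes that overlap or share sequence with a member, and Srsf10. Single cell type markers not at 0 were named after their values were seen. Alternatives were pseudocounts of 0.1 and 5, 4 other scalings, other filters and fold rules, and the 7 small heat shock proteins alone. Added after seeing the data were scaling to cardiomyocyte markers, centring by listed length or GC content, and leaving out Hspb2 and Cryab.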

Additional observations from a re-analysis of the deposited data

How the results depend on the processing

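All 9 members stayed below 0 in each of the 9 alternatives that recompute the log2 ratio. Hspb1 ranged from -0.65 to -0.52, Hspb6 from -0.63 to -0.50 and Hspb2 from -0.15 to -0.01. Of 2 members at least 1.5-fold lower, 1 was left with a pseudocount of 5, with the total taken without mitochondrial genes, with scaling to cardiomyocyte markers and with centring by listed length, and 0 with centring by GC content or a 2-fold rule. The number of all measured genes at least 1.5-fold lower also changed, from 177 as computed to 54 with a pseudocount of 5 and 141 with centring by GC content. The median of the members, -0.19 as computed, was -0.16 for the 7 small heat shock proteins alone. It was -0.14 with centring by GC content and -0.29 without Hspb2 and Cryab. The median of the intermediate filament list turned from 0.05 to -0.00206 when an RPKM of 5 was required. The cause was not tested. No paired analysis was possible because each group holds 1 library. For the same reason no library could be left out. Counting error is small at these depths, widest for Hspb3, and says nothing about the spread between animals.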

Other observations

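The stress-inducible Hsp70 genes, chosen after seeing their values, were low in both hearts. Hspa1a had 112 reads, or 0.966 RPKM, in the wild-type heart against 51 (0.448 RPKM) in the knockout, 2.16-fold lower (1.53 to 3.06). Hspa1b had 63 and 49 reads. The pair are near-identical copies, so uniquely mapped reads measure them with little certainty. Hsf1, the main heat shock factor, also picked afterwards, had 21.6 RPKM in the wild-type heart against 20.8 in the knockout, 1.04-fold lower with an interval from 0.969 to 1.11. Hspb9, a small heat shock protein of the testis, had 6 and 11 reads.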
